A study of Mus musculus with 12 samples.

Results

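The NADPH oxidase of phagocytes was described here through 6 genes, Cybb, Cyba, Ncf1, Ncf4, Rac2 and Hvcn1, which were taken by gene name from the 34745 genes of the deposited expression table, and each name matched 1 row. RNA of the femoral bone marrow of male ICR mice, an outbred strain, was sequenced in 4 groups of 3 mice each. Mice of the normal group had saline by mouth and by intraperitoneal injection, without cyclophosphamide and without a drug. In the model group cyclophosphamide, a DNA alkylator toxic to dividing marrow cells, was injected intraperitoneally each day on days 5 to 7 at 80 mg/kg. These mice had saline by mouth. Mice of the QJSB group had this cyclophosphamide course and also Qi-Jing-Sheng-Bai granule, a herbal preparation, at a daily 3 g/kg. Mice of the leucogen group had the same course and also leucogen, a drug used against low leucocyte counts, at a daily 20 mg/kg. Both drugs were given by mouth for 1 week, so that every animal outside the normal group carried cyclophosphamide, and no group received a drug without it. The age of the mice is not given in the sources used here. The table heads its columns Blank, Model, Positive and Stilbene, of which the sample labels use only Model. Blank was taken for normal, Positive for leucogen (the positive control) and Stilbene for QJSB, from what the words mean and from which groups were left over.

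The phagocyte oxidase passes electrons from cytosolic NADPH across a membrane to oxygen and so makes superoxide, the starting point of the oxidants with which neutrophils and macrophages kill microbes. Its membrane part is the flavocytochrome b558 made of the products of Cybb and Cyba, and it stays idle until cytosolic subunits and a Rac GTPase join it. Loss of a subunit causes chronic granulomatous disease in humans, and in marrow the genes are expressed mainly in maturing neutrophils and monocytes.

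The genes lie on 4 chromosomes (GRCm38, positions as in the table). Cybb (ENSMUSG00000015340) spans chrX:9435252-9487771 and Cyba (ENSMUSG00000006519) spans chr8:122424772-122432940. Ncf1 (ENSMUSG00000015950) spans chr5:134220053-134229625, on the same chromosome as Hvcn1 (ENSMUSG00000064267) at chr5:122206804-122242297. Ncf4 (ENSMUSG00000071715) at chr15:78244801-78262580 and Rac2 (ENSMUSG00000033220) at chr15:78559169-78572783 share a chromosome and lie on opposite strands. RefSeq promoters were at hand for 3 of the 6 members, Cybb, Cyba and Ncf1. These genes code for the membrane pair and its organiser. In leucogen against model Cybb and Ncf1 were called while Cyba was not, and whether the promoters bear on this was not tested. The 250 bases before the RefSeq start of each gene are shown. All of them lie on the minus strand of GRCm38.p6 and are printed 5′ to 3′, and capitals mark a match to CCAAT (the CCAAT box) or to GGGCGG (the GC box, which reads CCGCCC on the other strand).
Cybb chrX:9469325-9469574: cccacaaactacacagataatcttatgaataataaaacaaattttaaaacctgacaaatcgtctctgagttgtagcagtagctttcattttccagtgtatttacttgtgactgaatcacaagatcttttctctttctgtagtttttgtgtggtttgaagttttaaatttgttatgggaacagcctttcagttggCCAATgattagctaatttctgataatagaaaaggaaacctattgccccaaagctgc
Cyba chr8:122432941-122433190: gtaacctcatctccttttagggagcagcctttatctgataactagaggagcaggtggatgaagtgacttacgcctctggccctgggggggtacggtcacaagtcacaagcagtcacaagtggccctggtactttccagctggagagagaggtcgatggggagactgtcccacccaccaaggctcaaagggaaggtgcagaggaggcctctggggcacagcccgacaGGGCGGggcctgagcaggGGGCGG
Ncf1 chr5:134229626-134229875: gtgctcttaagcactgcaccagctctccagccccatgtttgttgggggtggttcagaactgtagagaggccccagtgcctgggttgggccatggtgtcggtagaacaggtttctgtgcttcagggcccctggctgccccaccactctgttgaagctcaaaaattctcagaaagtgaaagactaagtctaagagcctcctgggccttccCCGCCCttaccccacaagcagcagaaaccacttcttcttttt
The Cybb promoter held CCAAT 56 bases before the start and had a GC content of 34.0%. The Cyba promoter held GGGCGG at 24 and at 6 bases before the start, with a GC content of 60.0%. The Ncf1 promoter held CCGCCC at 42 bases before the start, with a GC content of 54.4%. Both strands were searched, and 33.8% of 32851 mouse promoter windows of this length held CCAAT and 32.7% held GGGCGG. The letters GAGGAA, a form of the site of the myeloid factor PU.1, were in none of these windows, against 23.3% of all promoters. This says only that these letters are not there, and shorter or other forms of the site were not searched. The RefSeq start of Cybb lies inside the span that the table gives for this gene.

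The depth of the libraries was 11172547 to 18545198 counts. Every pair of libraries within a group differed beyond counting error, and chi-square divided by its degrees of freedom ran from 10.9 for normal 1 and 2 to 107 for QJSB 1 and 2. QJSB 1 stood apart from QJSB 2 and 3 in several members, and its values are given with each result. The 6 members took 0.224% to 0.247% of all counts in normal, 0.246% to 0.379% in model, 0.273% to 0.595% in QJSB and 0.494% to 0.620% in leucogen. Cybb alone made 48.6% to 65.8% of the members' counts in a library.

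Levels were compared between genes by FPKM, which divides by transcript length. In normal marrow Cybb was highest at 213 ± 17.0 FPKM (SD, n = 3). Rac2 (98.9 ± 4.20), Cyba (92.3 ± 1.69), Ncf1 (61.4 ± 2.54), Ncf4 (40.0 ± 1.25) and Hvcn1 (21.8 ± 1.18) followed, and no pair of neighbours in this order overlapped. In model marrow the order was Cybb (295 ± 80.7), Cyba (153 ± 29.2), Rac2 (136 ± 36.4), Ncf1 (90.4 ± 30.4), Ncf4 (77.9 ± 20.6) and Hvcn1 (17.1 ± 5.23), and the neighbours from Cyba to Ncf4 overlapped. In QJSB marrow it was Cybb (370.03 ± 135), Rac2 (222 ± 81.9), Cyba (214 ± 54.7), Ncf1 (143 ± 66.6), Ncf4 (110 ± 23.4) and Hvcn1 (24.6 ± 8.13), and here Cybb also overlapped Rac2. In leucogen marrow Cybb stood at 560.4 ± 67.0 FPKM, apart from Ncf1 (160 ± 16.1), Rac2 (143 ± 30.6), Cyba (129 ± 24.2) and Ncf4 (104 ± 5.76), while Hvcn1 was at 24.4 ± 5.07. Cybb thus had the highest mean and Hvcn1 the lowest in each group, and Hvcn1 never overlapped the member above it.

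Cybb encodes gp91phox, the electron-carrying subunit. Its normalised read count relative to library size (CPM, scaled by the TMM method) was 1501, 1318 and 1279 in normal 1 to 3 and 1232, 2255 and 1743 in model 1 to 3. It was 1265, 3220 and 2664 in QJSB and 3067, 4145 and 3913 in leucogen. All leucogen libraries lay above all model and normal libraries, while QJSB 1 lay below every normal library. Cyba encodes p22phox, the partner that stabilises gp91phox. Its level was 72.4, 69.9 and 71.7 CPM in normal and 89.2, 99.9 and 138 CPM in model. It was 114, 222 and 160 CPM in QJSB and 99.1, 124 and 84.8 CPM in leucogen. All libraries of the 3 cyclophosphamide groups lay above normal, and the model and leucogen libraries overlapped.

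Ncf1 encodes p47phox, the organiser that is phosphorylated and brings the cytosolic complex to the membrane. Its level was 421, 441 and 403 CPM in normal and 348, 601 and 779 CPM in model. It was 412, 1358 and 1201 CPM in QJSB and 991, 1283 and 1124 CPM in leucogen. QJSB 1 stayed within the range of normal, and as for Cybb leucogen lay wholly above model. Ncf4 encodes p40phox, which binds a phosphoinositide of phagosome membranes. Its level was 128, 132 and 123 CPM in normal and 167, 215 and 306 CPM in model. It was 239, 427 and 379 CPM in QJSB and 328, 368 and 330.4 CPM in leucogen. Ncf4 was above normal in each of the 9 libraries of mice that received cyclophosphamide, and QJSB 1 was within the range of model.

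Rac2 encodes the Rac GTPase of blood cells, which activates the assembled oxidase. Its level was 323, 299.9 and 295 CPM in normal and 308, 333 and 529 CPM in model. It was 422, 1015 and 630.0 CPM in QJSB and 386, 578 and 401 CPM in leucogen. QJSB 2 was the highest library and carried much of the QJSB mean. Hvcn1 encodes the voltage-gated proton channel, which lets protons out as electrons leave the cell and which B cells also express. Its level was 89.6, 99.2 and 92.8 CPM in normal and 47.4, 62.8 and 94.1 CPM in model. It was 60.2, 141 and 117 CPM in QJSB and 89.9, 136 and 98.0 CPM in leucogen. Model 1, model 2 and QJSB 1 lay below all normal libraries, and the groups overlapped in every comparison.

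**Figure D1:**
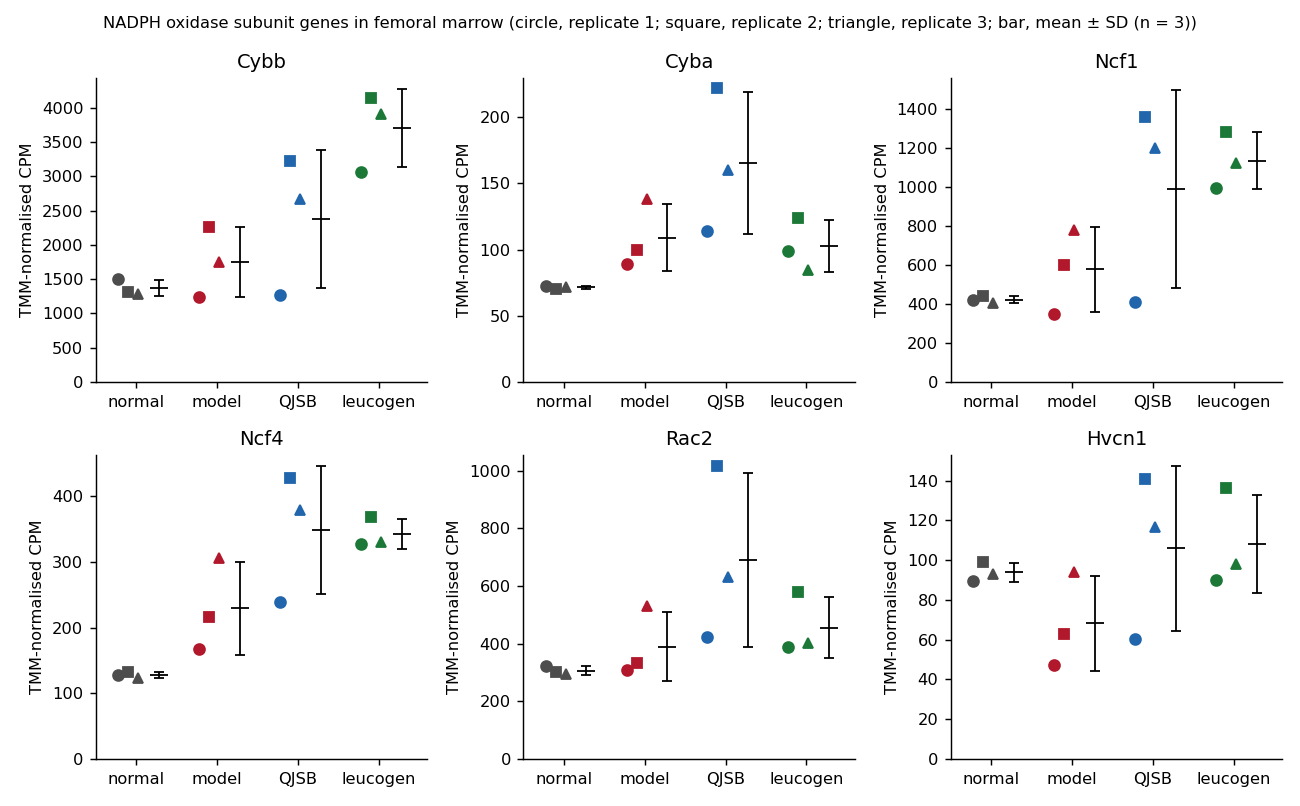
TMM-normalised CPM of the 6 members (y axis, linear from 0) in each library of the 4 groups (x axis), with the mean and SD of 3 mice as a bar. Leucogen lies above model in Cybb, Ncf1 and Ncf4, normal is tight in every gene, and QJSB 1 (circle) is the lowest QJSB library in each panel.

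The comparison of model with normal asked what cyclophosphamide does to these genes. Cyba rose from 71.3 ± 1.27 to 109 ± 25.6 CPM (SD, n = 3), which is 0.62 on the log2 scale with a standard error of 0.17 (edgeR adjusted p = 0.0197). Ncf4 rose from 127 ± 4.57 to 230 ± 70.9 CPM, by 0.85 ± 0.21 on the log2 scale (edgeR adjusted p = 0.0110). Both were apart from normal in all libraries. A gene was called where the fold change passed 1.5-fold with a Benjamini-Hochberg adjusted p under 0.05 over all genes tested, and 2 of 6 members were called higher, against 16.1% of all genes tested. The cutoff of the study uses the unadjusted P, which the study took from DESeq2. Applied here to the edgeR P, it was passed by the same 2 genes, against 17.9% of all genes. Non-overlapping higher libraries were seen for 2 members, against 27.1%. Cybb (0.36 ± 0.22), Ncf1 (0.45 ± 0.26) and Rac2 (0.35 ± 0.20) did not pass (edgeR adjusted p = 0.221, 0.198 and 0.197). Hvcn1 had a log2 difference of -0.46 ± 0.23 (edgeR adjusted p = 0.142). The median of the members was 0.41, against 0.02 over all genes. The call of Cyba was lost without any 1 of the 3 normal libraries or without model 3, and without model 3 the fall of Hvcn1 passed the test instead (-0.76, edgeR adjusted p = 0.00724). Since whole marrow was sequenced, fewer cells of a type and less RNA per cell cannot be told apart.

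Marker genes of several cell types also differed between model and normal marrow. The summed level of 9 B lineage markers was 1652 to 1690 CPM in normal and 15.1 to 99.1 CPM in model, and all 9 were called lower. The sum of 9 erythroid markers was 10071 to 10836 CPM in normal and 233 to 675 CPM in model, with 9 of 9 called lower. The 8 promyelocyte markers went from 843 to 1044 CPM in normal to 6862 to 9812 CPM in model, with 7 of 8 called higher. The 10 monocyte and macrophage markers went from 1694 to 1860 CPM to 2832 to 4908 CPM, with 6 called higher and 1 lower. The 15 markers of late neutrophils summed to 23372 to 26079 CPM in normal and to 8250, 26316 and 16369 CPM in model 1 to 3, with 6 called lower. S100a8, S100a9 and Chil3 made up much of these sums, with 8710, 4918 and 5700 CPM in model 2. The median log2 fold change of the 15 markers was -1.41, and 3 of them were above 0. Of the other lists, 4 of 5 eosinophil markers and 7 of 8 T and NK cell markers were called lower. The 1 T and NK cell marker called higher was Nkg7, which is also in the promyelocyte list. In the remaining lists 0 of 5 megakaryocyte and 1 of 6 stroma markers were called higher and none lower. Stroma markers summed to 914 CPM in model 1 and 1044 CPM in QJSB 1, against 309 to 430 CPM in the remaining model and QJSB libraries. No marker of these lists was at 0 in all libraries of normal or of model, and Vpreb3 of the B lineage was at 0 in all QJSB and leucogen libraries. The part of cell composition in the changes of the members was not tested. Cyba and Ncf4 thus rose in marrow in which 7 of 8 promyelocyte and 6 of 10 monocyte and macrophage markers were called higher. In the same marrow all 9 B lineage, all 9 erythroid and 6 of 15 late neutrophil markers were called lower. Over all genes, 2368 of 14752 tested were called higher and 2803 lower.

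**Figure D2:**
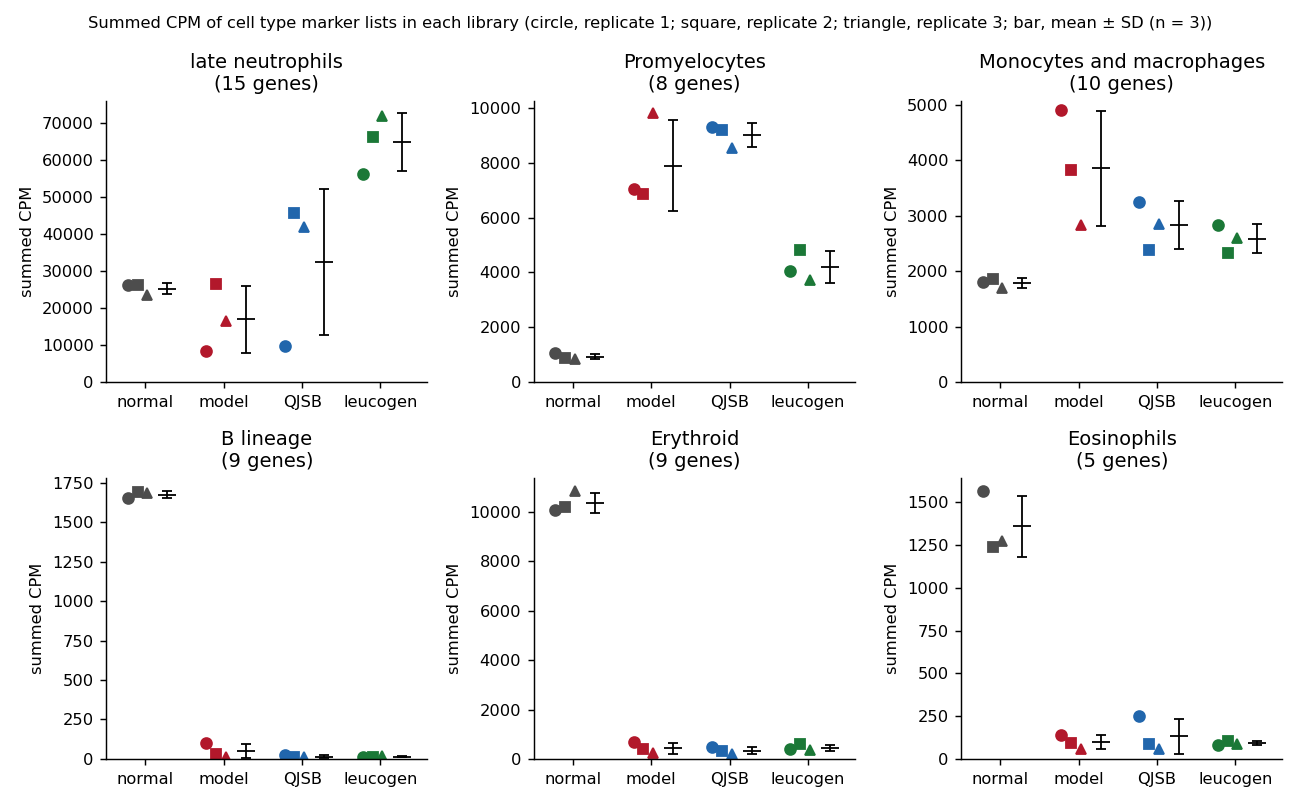
Summed CPM of 6 lists of cell type markers (y axis, linear from 0) in each library of the 4 groups (x axis), with the mean and SD of 3 mice as a bar. Late neutrophil markers are lowest in model 1 and QJSB 1 and highest in leucogen, while B lineage, erythroid and eosinophil markers are low in every cyclophosphamide group. S100a8, S100a9 and Chil3 make up much of the late neutrophil sum.

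The comparison of QJSB with model asked what the granule adds to cyclophosphamide. All 6 members had a higher mean in QJSB, and none passed the adjusted cutoff. The log2 fold change was 0.81 ± 0.34 for Rac2 (390 ± 121 CPM in model, 689 ± 301 CPM in QJSB), 0.77 ± 0.46 for Ncf1 and 0.62 ± 0.35 for Hvcn1. It was 0.59 ± 0.28 for Ncf4, 0.58 ± 0.26 for Cyba and 0.43 ± 0.36 for Cybb. The edgeR adjusted p was 0.767 for 5 of them and 0.799 for Cybb. In this comparison 0 of 14486 genes tested (0%) passed the adjusted cutoff by edgeR, 723 had an unadjusted P under 0.05, and DESeq2 called 8 genes. Rac2 alone passed the unadjusted cutoff by edgeR, which 1.68% of all genes passed in this direction. By DESeq2, the program of the study, Cyba, Ncf4 and Rac2 passed it, against 394 of 21744 genes in this direction. No member was apart from model in all libraries, against 4.09% of all genes, and the median of the members was 0.60, against -0.02 over all genes.

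The libraries of QJSB and model deviated together by replicate number, so that a fit with the replicate number as a block was made as well. The ratio of QJSB to model within a number was 1.37, 3.05 and 1.19 for Rac2 and 1.43, 1.98 and 1.24 for Ncf4. It was 1.28, 2.22 and 1.16 for Cyba and 1.18, 2.26 and 1.54 for Ncf1. It was 1.27, 2.24 and 1.24 for Hvcn1 and 1.03, 1.43 and 1.53 for Cybb. Every ratio was above 1, and number 2 gave the largest for each member except Cybb. No label pairs the mice, and the matching was read from these same libraries (r = 0.426, 0.123 and 0.107). Number 1 set the lowest QJSB library beside the lowest model library in each member, so these ratios depend on the matching. With the block, 4 members passed the unadjusted cutoff, against 2.99% of all genes in this direction, namely Rac2 (0.75 ± 0.26 on the log2 scale), Ncf1 (0.67 ± 0.21), Hvcn1 (0.59 ± 0.20) and Ncf4 (0.59 ± 0.18), and none passed the adjusted one (edgeR adjusted p = 0.362 to 0.571). That fit called 14 genes higher and 4 lower in all at the adjusted cutoff. Without QJSB 1 all 6 members passed the unadjusted cutoff (5.72% of all genes in this direction), without model 3 4 did (3.29%), and without QJSB 2, QJSB 3, model 1 or model 2 none did. Late neutrophil markers summed to 9758, 45555 and 41712 CPM in QJSB 1 to 3, and QJSB 1 was the lowest QJSB library in each member. All 15 of these markers had a log2 fold change above 0 against model (median 1.14) and 0 were called. Of the 10 monocyte and macrophage markers only 1 had a log2 fold change above 0 (median -0.52), and 0 were called. The part of either list in the members' differences was not tested.

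The comparison of leucogen with model asked what the positive control drug adds. Cybb rose from 1744 ± 512 to 3708 ± 567 CPM, by 1.10 on the log2 scale with a standard error of 0.24 (edgeR adjusted p = 0.0131). Ncf1 rose from 576 ± 217 to 1133 ± 146 CPM, by 0.98 ± 0.27 on the log2 scale (edgeR adjusted p = 0.0278). Cyba, the partner of Cybb in the flavocytochrome, did not pass the test and was at 109 ± 25.6 CPM in model and at 103 ± 19.8 CPM in leucogen, with a log2 difference of -0.08 ± 0.20 (edgeR adjusted p = 0.784). Thus 2 members of 6 were called higher in leucogen, against 11.6% of all genes. Hvcn1 (0.67 ± 0.26, edgeR adjusted p = 0.0843) passed only the unadjusted cutoff, which 3 members and 14.0% of all genes passed in this direction. Ncf4 (0.58 ± 0.21, edgeR adjusted p = 0.0630) was apart from model in all libraries but lay just under 1.5-fold, and Rac2 was at 0.23 ± 0.24 (edgeR adjusted p = 0.493). Libraries did not overlap for Cybb, Ncf1 and Ncf4, 3 of 6, against 22.4% of all genes, and the median of the members was 0.63, against -0.05. The call of Cybb was lost without leucogen 3, and that of Ncf1 without model 2 or any 1 leucogen library. Late neutrophil markers summed to 56268 to 71845 CPM in leucogen, with 10 of 15 called higher than in model (median 2.32), promyelocyte markers to 3707 to 4832 CPM, with 5 of 8 called lower, and monocyte and macrophage markers to 2322 to 2840 CPM, with 4 of 10 called lower. S100a8 and S100a9 made up much of the late neutrophil sum, with 23700 to 25898 and 10994 to 16812 CPM in leucogen. The part of these marker lists in the rise of Cybb and Ncf1 was not tested.

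Both drug groups were also set against normal marrow, and in each of them 4 members were called higher than in normal. In QJSB, Ncf4 (1.46 ± 0.20, edgeR adjusted p = 0.00105), Cyba (1.22 ± 0.22, edgeR adjusted p = 0.00335), Rac2 (1.18 ± 0.29, edgeR adjusted p = 0.0124) and Ncf1 (1.24 ± 0.39, edgeR adjusted p = 0.0335) rose on the log2 scale, 4 of 6 members against 18.0% of all genes. Cybb (0.81 ± 0.31, edgeR adjusted p = 0.0651) passed only the unadjusted cutoff, which 5 members and 19.9% of all genes passed, and Hvcn1 was at 0.19 ± 0.27 (edgeR adjusted p = 0.609). Non-overlapping libraries were seen for Cyba, Ncf4 and Rac2, 3 members, against 28.9% of all genes. Ncf1 overlapped normal through QJSB 1, and its call was lost without any 1 library other than QJSB 1, with no filter on low counts, with the replicate block and by limma-trend on FPKM under each of its 3 settings. The call of Rac2 was lost without normal 2. In leucogen, Cybb (1.46 ± 0.13, edgeR adjusted p = 8.01e-06), Ncf1 (1.45 ± 0.10, edgeR adjusted p = 2.32e-06) and Ncf4 (1.45 ± 0.083, edgeR adjusted p = 5.36e-07) rose, and Rac2 was just past 1.5-fold (0.59 ± 0.14, edgeR adjusted p = 0.00693). These 4 of 6 members passed both the adjusted cutoff (17.8% of all genes) and the unadjusted one (18.7%), and the call of Rac2 was lost without normal 2, normal 3 or leucogen 2 and in each alternative that kept all 3 mice of both groups. Cyba was apart from normal and past the adjusted p but not past 1.5-fold (0.55 ± 0.13, edgeR adjusted p = 0.00495), and Hvcn1 was at 0.22 ± 0.14 (edgeR adjusted p = 0.213). Libraries were apart for 5 members, all but Hvcn1, against 30.5% of all genes. Promyelocyte markers were called higher than in normal for 8 of 8 genes in both drug groups, and late neutrophil markers for 11 of 15 in leucogen and 1 of 15 in QJSB, with 0 called lower, and their part in the members' changes was not tested. The median of the members was 1.20 in QJSB and 1.02 in leucogen, against 0.02 and -0.01 over all genes, and the shared normal libraries mean that the 2 sets of values are not independent.

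The drug groups were also compared with each other. Cyba was at 165 ± 53.8 CPM in QJSB and 103 ± 19.8 CPM in leucogen, a log2 difference of 0.67 ± 0.24 (edgeR adjusted p = 0.0714), and it alone passed the unadjusted cutoff, which 15.8% of all genes passed in this direction. Cybb had a log2 difference of -0.66 ± 0.33 (edgeR adjusted p = 0.161) and Rac2 of 0.58 ± 0.31 (edgeR adjusted p = 0.200). Ncf1 (-0.21 ± 0.40), Hvcn1 (-0.05 ± 0.31) and Ncf4 (0.01 ± 0.21) lay nearer to 0. None of the 6 passed the adjusted cutoff in either direction, against 24.6% of all genes (12.9% higher in QJSB), and none was apart in all libraries, against 48.7% (24.9% higher in QJSB). The median was -0.02, against 0.03 over all genes.

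**Figure D3:**
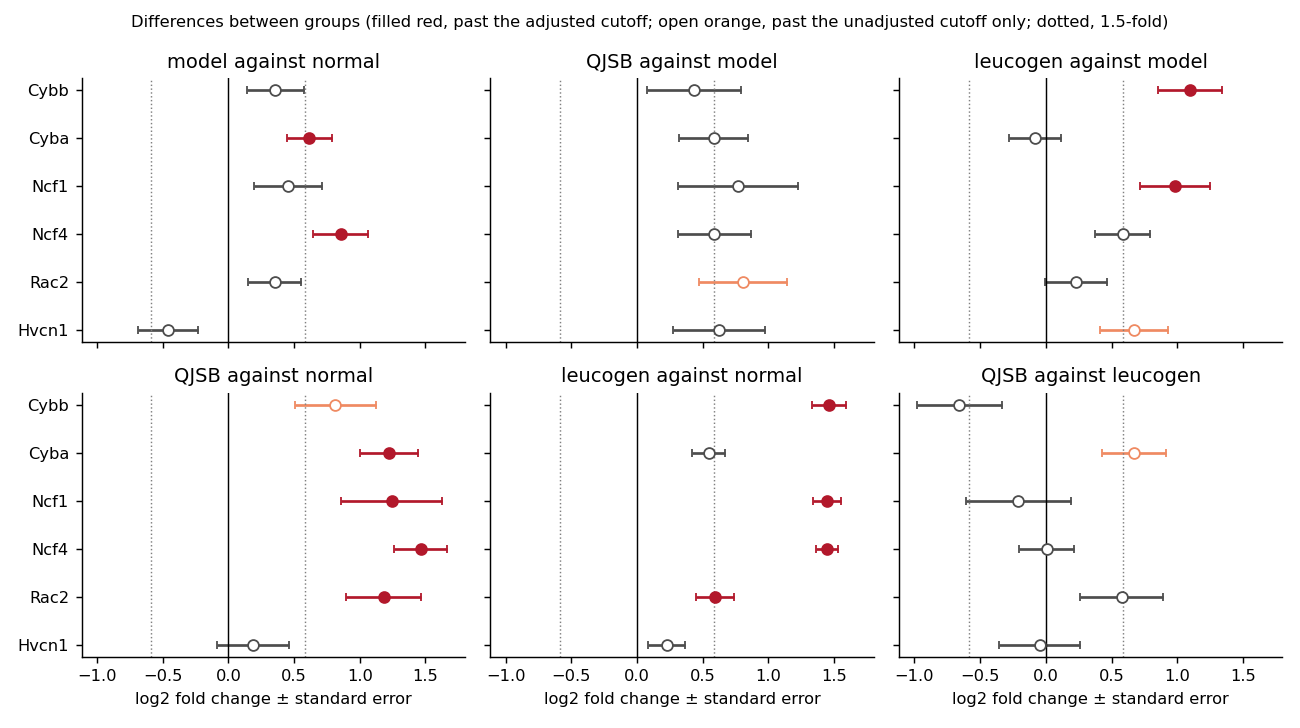
Log2 fold change of the 6 members (x axis, first group over second, with the standard error as a bar) in the 6 comparisons, from fits of the 6 libraries of each pair of groups. Filled red points passed 1.5-fold with an adjusted p under 0.05, as for Cybb and Ncf1 in leucogen against model, open orange points passed at the unadjusted P only, and no point is filled in QJSB against model.

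The balance between subunits was compared within a library as the ratio of 2 FPKM values, and tested two-sided by exact permutation of the libraries, where 3 against 3 allows no p below 0.1. The ratio of Cyba to Cybb, the 2 flavocytochrome subunits, was 0.400, 0.440 and 0.465 in normal and 0.601, 0.368 and 0.657 in model. It was 0.750, 0.571 and 0.498 in QJSB and 0.268, 0.248 and 0.180 in leucogen. All leucogen libraries lay below all others, and the ratio was 0.435-fold that of model (exact permutation p = 0.1). Rac2 to Cybb was likewise 0.544-fold in leucogen against model without overlap (exact permutation p = 0.1), whereas Ncf1 to Cybb was 0.949-fold (exact permutation p = 1). Hvcn1 to Cybb was 0.562-fold in model against normal without overlap (exact permutation p = 0.1).

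Ncf4 to Ncf1, the p40phox and p47phox genes, was 0.654, 0.644 and 0.657 in normal and 1.03, 0.773 and 0.848 in model. It was 1.25, 0.678 and 0.680 in QJSB and 0.713, 0.619 and 0.634 in leucogen. Model lay above normal (1.35-fold) and above leucogen (leucogen 0.745-fold of model), each with the smallest exact permutation p of 0.1. Of 18 ratios tested 5 reached the smallest p, 0 passed after adjustment (Benjamini-Hochberg p = 0.36 from the exact permutation values), and none of the 6 ratios was without overlap between QJSB and model.

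**Figure D4:**
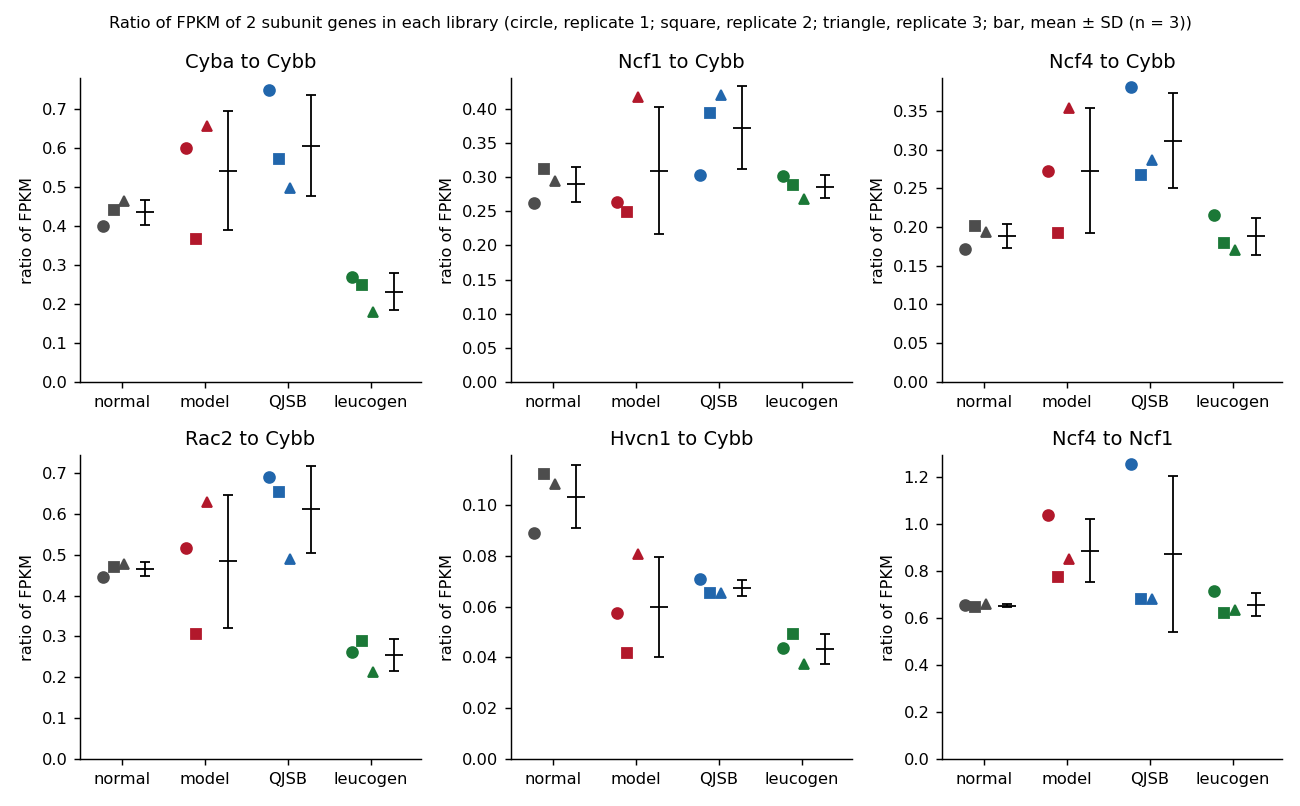
Ratio of the FPKM of 2 members in each library (y axis, linear from 0) by group (x axis), with the mean and SD of 3 mice as a bar. Cyba to Cybb is 0.180 to 0.268 in leucogen, below every library of the other groups, and Ncf4 to Ncf1 is high in the model libraries and in QJSB 1.

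Rac1, the close relative of Rac2 whose reads a counter could mix with those of Rac2, was 45.5, 158 and 161 CPM in normal and 237, 188 and 85.4 CPM in model. It was 247, 308 and 90.9 CPM in QJSB and 157, 189 and 159 CPM in leucogen and was called in none of the 6 comparisons. Its spread within normal, model and QJSB was wide, unlike that of Rac2 in normal. In a list of 13 oxidase partners in the table (mostly regulators that phosphorylate or load the subunits, Rac1 among them), 2 were called higher and 2 lower in model against normal (median -0.10). Of all 14752 genes tested there, 2368 (16.1%) were called higher and 2803 lower (median 0.02), so the partner list lay near that share. Over all genes, leucogen against model called 1641 higher and 1635 lower of 14184 tested (median -0.05). Vav1, an exchange factor for Rac, rose by 0.70 ± 0.14 (edgeR adjusted p = 0.00509), and Arhgdib, which keeps Rac GTPases in the cytosol, rose by 0.67 ± 0.15 (edgeR adjusted p = 0.00901). Prkcb, a protein kinase C that phosphorylates p47phox, was at -0.85 ± 0.23 (edgeR adjusted p = 0.0190), and Rap1a, a GTPase found with the flavocytochrome, at -0.64 ± 0.17 (edgeR adjusted p = 0.0150). Both genes moved the other way in leucogen against model, where Prkcb rose by 1.06 ± 0.24 (edgeR adjusted p = 0.0134), Rap1a by 0.76 ± 0.17 (edgeR adjusted p = 0.0130), and 3 partners in all were called higher and 0 lower (median 0.16). These 2 comparisons share the model libraries. In QJSB against model 0 partners were called and 12 of 13 had a log2 fold change above 0 (median 0.31).

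The other NADPH oxidases were low, with 9 genes summing to 1.62 to 3.94 CPM in a library and Nox3 and Duoxa2 at 0 in all groups, and only Noxo1 was tested and it was not called. Of 6 enzymes listed for NADPH supply, 4 of which make NADPH themselves while Tkt and Taldo1 belong to the non-oxidative pentose phosphate pathway, 3 were called higher and 1 lower in model against normal (median 0.64). G6pdx, the entry enzyme of the pentose phosphate pathway, rose by 1.23 ± 0.28 (edgeR adjusted p = 0.0104) and Tkt, a transketolase, by 0.90 ± 0.20 (edgeR adjusted p = 0.00745), while Me1, the cytosolic malic enzyme, fell from 33.7 ± 2.90 to 2.18 ± 0.742 CPM. None of the 6 was called in QJSB (median 0.59) or leucogen (median 0.36) against model. Of 10 tested genes that use or remove superoxide and peroxide, 2 were called higher and 1 lower in model against normal (median 0.27). Over all 14752 genes tested there, 2368 were called higher and 2803 lower (median 0.02). Mpo, which makes hypochlorous acid from peroxide and is also in the promyelocyte list, rose by 3.22 ± 0.27 (edgeR adjusted p = 6.24e-05), Txnrd1, a thioredoxin reductase, by 0.80 ± 0.20 (edgeR adjusted p = 0.0121), and Cat, the catalase, was at -1.36 ± 0.19 (edgeR adjusted p = 0.000791). In leucogen against model 1 was called higher and 4 lower (median -0.49), with Prdx5, a peroxiredoxin, at 0.86 ± 0.21 (edgeR adjusted p = 0.0162), Sod1, the cytosolic superoxide dismutase, at -1.42 ± 0.18 (edgeR adjusted p = 0.00215) and Mpo at -1.23 ± 0.28 (edgeR adjusted p = 0.0137), while QJSB against model called 0 (median 0.15). Sod1 and Cybb thus differed in opposite directions between leucogen and model.

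Of 9 tested transcription factors of phagocytes, 4 were called higher and 0 lower in model against normal (median 0.36), among them Gfi1, a transcriptional repressor needed for neutrophil development, at 2.12 ± 0.39 (edgeR adjusted p = 0.00461) and Cebpb, of emergency granulopoiesis, at 1.68 ± 0.33 (edgeR adjusted p = 0.00416). In leucogen against model Runx1 rose by 0.61 ± 0.13 (edgeR adjusted p = 0.0112) and Cebpa was at -0.79 ± 0.16 (edgeR adjusted p = 0.00938), and of 10 tested in QJSB against model 0 were called (median 0.02). Spi1, which encodes PU.1, was at 0.89 in model against normal (edgeR adjusted p = 0.00646), one of the 4. The share of all genes called higher in that comparison was 16.1%. Gfi1 is also in the promyelocyte list.

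The likeness of the members to each other and to other genes was measured as the root-mean-square difference of log2 CPM over the 12 libraries, after centring each gene on its mean, among 9472 genes with a mean of at least 10 CPM. It is a description with no test. The members fell unevenly, with the smallest distance between Cyba and Rac2 (0.16), then between Cybb and Ncf1 (0.25), and the largest between Cybb and Cyba (0.59), the 2 subunits of the flavocytochrome. The median distance of a gene was 0.73 from Cybb and 0.57 from Cyba. Cybb thus lay farther from Cyba than the median gene did, while Cyba lay nearer to Cybb than the median gene did. The distance grows with the spread of a gene, and the root-mean-square of the centred values was 0.64 for Cybb and 0.49 for Cyba. The median distance was 0.58 from Hvcn1, whose distance to Ncf4 was also 0.58. The genes nearest to Cybb were Ccdc125 (0.13), Arfgef1 (0.14) and Cep19 (0.15), and those nearest to Ncf1 were Pglyrp1 (0.15), a secretory granule protein that binds bacterial walls, Abhd5 (0.17) and Fam101b (0.18). Nearest to Cyba were Efhd2 (0.11), Cotl1 (0.12) and Cep164 (0.12), and to Rac2 Myh9 (0.14), Cotl1 (0.14) and Marcksl1 (0.15), so that Cotl1, an actin-binding protein, was near both. Nearest to Ncf4 were Tmem63a, Chd7 and Dram1 (0.13 each), and to Hvcn1 Pag1 (0.14), Kdm6b (0.14) and Lmtk2 (0.15).

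Some members overlap other genes on the opposite strand, and whether the counting used strand is not stated. Ncf1 overlaps Gtf2ird2, which had 90 to 210 counts in a library, and Hvcn1 overlaps Tctn1, which had 79 to 340 counts. Cyba overlaps Gm20388, which had 0 counts, and Cybb, Ncf4 and Rac2 overlap no gene of the table on either strand. Rac1, which is not a member, overlaps Daglb on the opposite strand, and Daglb had 536 to 1596 counts in a library. The part of the overlapping genes in the counts of Ncf1, Hvcn1 and Rac1 was not tested.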

How the data were processed

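RNA of the femoral marrow of 12 mice was sequenced after ribosomal depletion in strand-specific libraries. The authors filtered the reads with Seqtk, mapped them with Hisat2 to GRCm38.p4 and deposited read counts per gene, as whole numbers without normalization, and FPKM per gene. The counting program and annotation version are not given in the sources used here. The 12 libraries came with the headings read as described, 0 sample columns were unused, and each library had at least 11172547 counts, so that counting error was small beside the spread between mice.

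The counts were fitted with edgeR 4.0.16 (TMM, filterByExpr, robust quasi-likelihood F test) in R 4.3.3 for the 6 libraries of each of 6 comparisons, with p adjusted over all genes tested. The cutoffs were 1.5-fold with an adjusted p, or an unadjusted P, under 0.05. The standard error is the log2 fold change divided by the square root of F. FPKM served for levels and ratios between genes, with exact permutation tests in scipy 1.17.1. The alternatives were DESeq2 1.42.0, its size factors in edgeR, total counts, no filter, a filter of 10 counts per library, a joint fit of all 12 libraries, the replicate block, limma-trend (limma 3.58.1) on log2(FPKM + 0.1), with or without a filter on mean FPKM of 0.1, or with a pseudocount of 1, and each library left out. Same-numbered QJSB and model libraries deviated together (r = 0.426, 0.123 and 0.107 over 15310 genes), and that pairing comes from these correlations alone.

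The members and gene lists were chosen with earlier results of these data known. All members were named. Of each list, up to 2 rises and 2 falls past the adjusted cutoff with a mean of at least 5 CPM were named per comparison with normal or model, with Rac1 always and the 3 genes most like each member, and 1 gene that this rule also takes is not reported here. Spi1 was named after its value was seen. The fits were tested on simulated counts. Promoters came from RefSeq (GRCm38.p6).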

Additional observations from a re-analysis of the deposited data

How the results depend on the processing

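Of 576 member fold changes recomputed under the alternatives, 509 kept their direction and side of the threshold, 35 fell below it, 18 passed it and 14 reversed. Where a call changed, the cause was not tested. In QJSB against model the members past the unadjusted cutoff were 3 by DESeq2, with no filter and with all 12 libraries in one fit, 4 with the replicate block, 0 by limma-trend on log2(FPKM + 0.1), with or without the filter, and on log2(FPKM + 1), and 0 to 6 with a library left out. Of all genes, 394 of 21744 passed it in this direction by DESeq2, 338 of 21762 with no filter and 434 of 15310 in the joint fit. With the block it was 433 of 14486. By limma-trend it was 161 of 15996 with the filter, 216 of 21762 without it and 89 of 15996 on log2(FPKM + 1). With a library left out it was from 64 of 14879 (without QJSB 2) to 844 of 14755 (without QJSB 1). No alternative called a member in QJSB against model at the adjusted cutoff. In leucogen against model the members called were 4 by DESeq2, 1 with all 12 libraries in one fit and 1 by limma-trend without the filter. Of all genes, DESeq2 called 1788 of 21089 higher, the joint fit 1672 of 15310 and limma-trend without the filter 1019 of 21097. With a library left out 0 to 4 members were called. Of all genes these fits called from 743 of 14680 (without leucogen 3) to 2087 of 14557 (without model 2) higher. In model against normal leaving a library out gave 1 to 3 called members. Of all genes these fits called from 1786 of 15074 (without normal 2) to 2561 of 15077 (without model 2) higher. Hvcn1, called without model 3, was lower, as were 2654 of 15094 genes. In QJSB against normal leaving a library out gave 2 to 5 called members and 3 to 5 past the unadjusted cutoff. Of all genes, from 2021 of 15270 (without normal 2) to 2822 of 14991 (without QJSB 1) were called higher. From 2681 of 15280 (without normal 1) to 2969 of 14991 (without QJSB 1) passed the unadjusted cutoff higher. In QJSB against leucogen the called members were 1 by DESeq2, 1 with total counts, 1 with all 12 libraries and 2 with the replicate block. Of all genes, DESeq2 called 1913 higher and 1862 lower of 21435, and total counts 2087 and 1357 of 14266. The joint fit called 2111 and 1774 of 15310, and the block 1901 and 1782 of 14266. With a library left out 0 to 2 members were called. The 2 came without QJSB 1, where 1775 genes were called higher and 1810 lower of 14414. Past the unadjusted cutoff were 2 members by DESeq2 (2289 genes higher, 2204 lower), 2 with total counts (2653, 1752) and 2 with the block (2284, 2217). With a library left out it was 0 to 2. Same-numbered QJSB and leucogen libraries also had positive correlations (r = 0.181, 0.134 and 0.078). The remaining comparisons had correlations of mixed sign, and no label pairs the libraries by number.

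Where a value reversed, the estimate of the main fit was smaller in size than its standard error. The reversed values lay between -0.15 and 0.23. Against model, Cyba in leucogen became 0.15 without model 3 and 0.036 without leucogen 3 (-0.23 to 0.15 over the libraries left out). Against normal, Hvcn1 in QJSB became -0.067 without QJSB 2 (-0.067 to 0.47). In QJSB against leucogen, Ncf1 became 0.15 without QJSB 1 (-0.49 to 0.15), Hvcn1 became 0.013 with total counts and ran from -0.29 to 0.23 with a library left out, and Ncf4 became -0.0015 by DESeq2, -0.011 with DESeq2 size factors and -0.034 with the block and ran from -0.15 to 0.21 with a library left out. Scaling by total counts moved the median of all genes from 0.02 to 0.14 in model against normal and from -0.05 to -0.22 in leucogen against model. With 3 mice a group, differences under the spread between mice were not detectable, and a leave-out fit rests on 2 mice in one group.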
